A study of Mus musculus with 24 samples.

Results

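The 40 genes described here are cell cycle and mitosis genes named by symbol, from cyclins and mitotic kinases to the enzymes that copy DNA, among 22609 gene symbols counted. They were listed by symbol, with earlier results of these data already known. All 40 were present in the files of all 24 libraries. In paw and in the dorsal root ganglia (DRG), which hold the cell bodies of sensory neurons, all 40 had 10 or more counts in 3 or more libraries, whereas 32 did in the spinal cord. A filter on low counts then left 40, 40 and 31 of them for testing.

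The libraries came from male C57 mice of 8 to 12 weeks. Mice received injections into the hind paw of an agonist antibody to LTβR, which binds lymphotoxin and belongs to the TNF receptor family, at 10 µg each, or of IgG at 10 µg as control. RNA was sequenced from paw skin taken by punch biopsy, from DRG of levels L3 to L5 on the injected side, and from the lumbar spinal cord. Paw and DRG each had 3 control libraries, taken 1 day after IgG, 3 libraries taken 1 day after 1 antibody injection (day 1) and 3 labelled day 6, after 2 injections. The spinal cord libraries analysed here comprised 3 at day 1 and 3 at day 6, with no IgG group. By their titles the day 6 samples were taken 6 days after the earlier injection, with the injections marked 1d and 3d, while the series' design places the injections 1 day apart and reads as counting from both, so the interval before the day 6 samples is uncertain. Day and number of injections changed together and cannot be told apart. Paw and DRG had no IgG group at day 6, so antibody, time and number of injections cannot be told apart in the day 6 differences. The labels number the samples without saying that each came from a separate animal, so the p-values reflect only how these samples spread, which may be technical.

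Cyclins are regulatory subunits that switch on cyclin-dependent kinases, and Cdk1 with cyclins A and B carries a cell into mitosis. The mitotic genes are transcribed mostly late in the cycle, after DNA has been copied, under the MuvB complex with B-Myb and Foxm1. The genes of DNA replication are transcribed earlier, under E2F factors. In skin, dividing cells lie mainly in the basal layer of the epidermis and in hair follicles, while neurons of the DRG and spinal cord no longer divide and glia, vascular cells and immune cells can.

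The mitotic and the replication genes also differ in the letters before their start sites. Windows of 300 bases, from 250 before to 50 after each RefSeq start site (build GRCm38.p6), were found for 34 of the 40 genes, in 36 windows. Ccna2, Aurkb, Kif20a, Tpx2, Pbk and Fam64a had no window in the table used. The cell cycle homology region (CHR, searched as TTTGAA or TTCGAA on either strand) is the element MuvB binds, and CCAAT boxes (CCAAT, either strand) bind NF-Y. E2F sites were searched on either strand under 3 forms that can overlap one another: TTTGGCG as the first, TTTCCCG as the second and TTCGCG as the third.

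The first 3 sequences are the 150 bases directly upstream of the start sites of the mitotic genes Cdc20 (chr4:118437344-118437493, minus strand), Ube2c (chr2:164769779-164769928, plus strand) and Cdk1 (chr10:69352913-69353062, minus strand). They are shown because each holds a CHR close to the start and CCAAT boxes before it. Capitals mark CHR, CCAAT and E2F letters, read 5′ to 3′ on the gene's strand.
Cdc20: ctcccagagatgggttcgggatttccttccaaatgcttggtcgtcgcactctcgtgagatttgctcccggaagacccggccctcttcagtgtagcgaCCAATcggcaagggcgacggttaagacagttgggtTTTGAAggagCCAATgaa
Ube2c: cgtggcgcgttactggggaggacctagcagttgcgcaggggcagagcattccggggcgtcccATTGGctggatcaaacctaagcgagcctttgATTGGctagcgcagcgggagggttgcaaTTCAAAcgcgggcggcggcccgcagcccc
Cdk1: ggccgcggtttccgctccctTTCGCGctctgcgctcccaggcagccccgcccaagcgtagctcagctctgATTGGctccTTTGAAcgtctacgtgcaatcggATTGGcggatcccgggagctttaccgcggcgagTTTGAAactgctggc

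Mcm6 (chr1:128359706-128359855, minus strand) and Mcm5 (chr8:75109359-75109508, plus strand), which encode subunits of the helicase that opens DNA for copying, show the other arrangement, with E2F letters and CCAAT boxes and no CHR.
Mcm6: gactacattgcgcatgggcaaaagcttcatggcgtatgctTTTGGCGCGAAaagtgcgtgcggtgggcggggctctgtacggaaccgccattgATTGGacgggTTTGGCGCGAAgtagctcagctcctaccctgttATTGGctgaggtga
Mcm5: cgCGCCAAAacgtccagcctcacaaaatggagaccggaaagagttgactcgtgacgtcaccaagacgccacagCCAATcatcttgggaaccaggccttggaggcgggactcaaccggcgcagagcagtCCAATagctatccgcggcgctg

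In Cdc20 the CHR nearest the start began 18 bases before it, and in Cdk1 15 bases before it. A CHR was found in 82.8% of the 29 mitotic windows and in 14.3% of the 7 replication windows, against 19.2% of all 32851 windows. Replication windows held E2F letters in 57.1%, mitotic windows in 13.8% and all windows in 8.54%. CCAAT boxes did not separate the groups of genes, at 86.2% of mitotic and 85.7% of replication windows against 37.4% of all. A match describes the letters in these windows and is not evidence that a factor was bound. The reads were counted on the mm9 build, and no position was carried between builds.

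Counts are given as CPM, counts scaled to 1e6 counted reads after correction for library composition. Reads counted in genes numbered, in units of 1e6, 24.2 to 41 per library in paw, 21.6 to 34.2 in DRG and 15.7 to 26.3 in spinal cord. DRG control 1 stood apart by its reads outside genes, at 31.5% against 13.1 to 13.8% in the other DRG libraries. Paw control 1 held almost no skeletal muscle RNA, with 6 muscle genes summing to 129 CPM. Markers fitted the tissue labels: Krt5 lay between 1975 and 3208 CPM in paw and totalled 3 counts over the 6 cord libraries, and the cord neuron gene Slc6a5 had 0 counts in paw and DRG.

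The skin was by far the richest in these transcripts. Summed over the 40 genes, the paw controls had 1668, 1242 and 951 CPM, the day 1 libraries 673, 784 and 799 CPM, and the day 6 libraries 1307, 1740 and 1380 CPM. Day 1 lay below both other groups without overlap, and day 6 overlapped the controls. In DRG the sums were 119, 113 and 154 CPM in controls, 139, 123 and 115 CPM at day 1 and 156, 130 and 143 CPM at day 6. In spinal cord they were 84.5, 88.3 and 84.2 CPM at day 1 and 146, 92.3 and 110 CPM at day 6. In bulk tissue, fewer cycling cells and less of these RNAs per cell cannot be told apart.

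**Figure D1:**
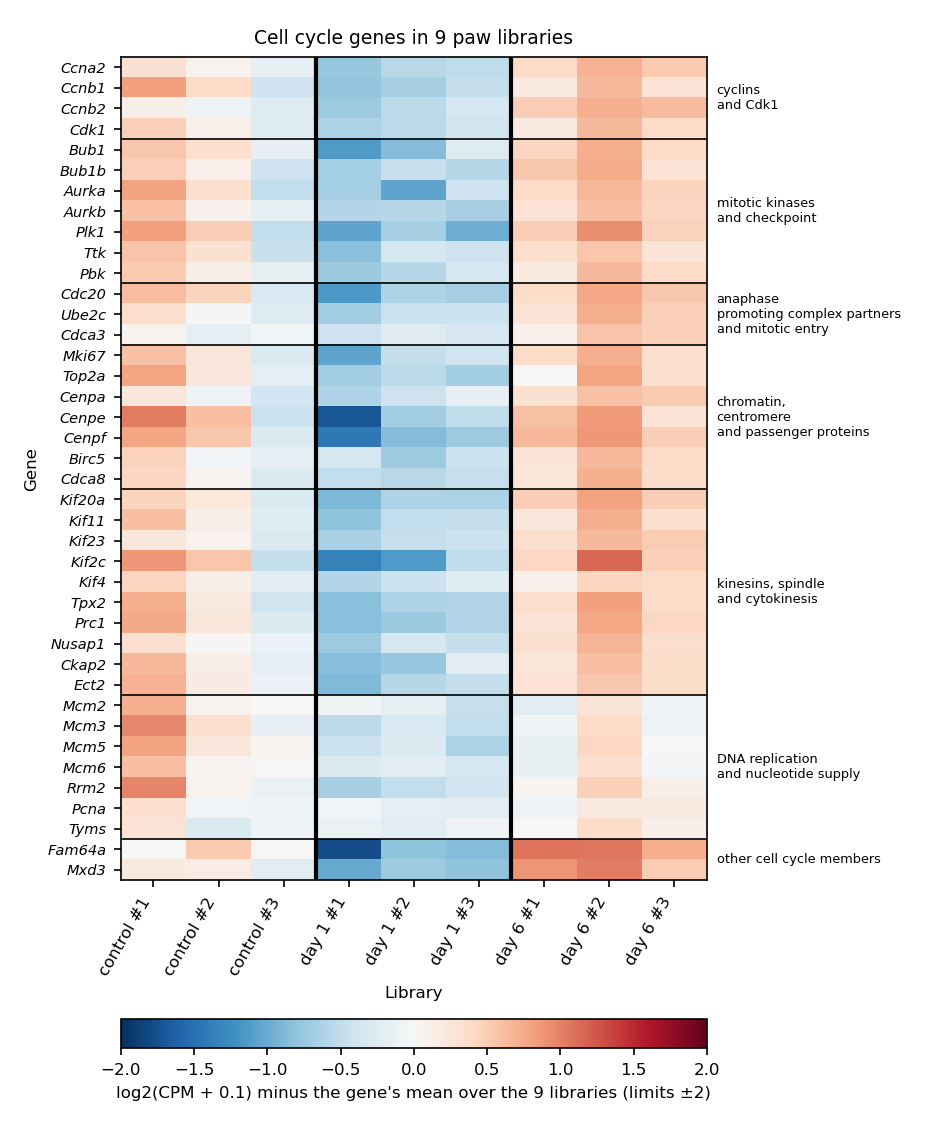
Levels of the 40 genes (rows, by role) in the 9 paw libraries (columns), as log2(CPM + 0.1) minus the gene's mean over the 9 libraries, in colour from blue (low) to red (high). The 3 day 1 libraries are low across the mitotic roles, the day 6 libraries are high, and the 7 replication genes stay nearer their mean at day 6.

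One day after the antibody, every one of the 40 genes read lower in paw than in the controls, by 0.13 to 1.43 on the log2 scale, with a median of -0.82 against 0.00596 over all 15287 genes tested. None passed an adjusted p of 0.05 by edgeR, where 0% of all genes were called lower. At an unadjusted p under 0.05, 36 of the 40 were lower, against 6.63% of all genes. Limma voom called 0 of them and DESeq2 called 15, all lower, against 0.816% of all genes. In 35 of 40 the 3 day 1 values lay below all 3 control values, against 8.60% of all genes, and the exceptions were Cenpa, Aurka, Ttk, Pcna and Tyms.

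Mki67, which encodes the proliferation antigen Ki-67, read 279, 217 and 152 CPM in paw controls, 90.1, 134 and 142 CPM at day 1 and 242, 309 and 232 CPM at day 6. Its day 1 values lay under every control value, and its day 6 values fell within or above the control range. Day 1 against control the difference was -0.83 ± 0.24 (SE, adjusted p = 0.367), and day 6 against day 1 it was 1.10 ± 0.25 (adjusted p = 0.083). Top2a, the topoisomerase that untangles sister chromatids, read 183, 124 and 93.2 CPM in controls, 65.9, 73.1 and 65.4 CPM at day 1 and 107, 185 and 133 CPM at day 6. It followed the same order, at -0.97 ± 0.26 for day 1 against control (adjusted p = 0.364) and 1.05 ± 0.26 for day 6 against day 1 (adjusted p = 0.118).

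The day 1 median depended on paw control 1, the control with the highest sum: without it the median was -0.53. Basal keratinocyte genes read lower at day 1 as well. The 11 basal keratinocyte markers summed to 10921, 9290 and 7284 CPM in controls, 6198, 5881 and 5885 CPM at day 1 and 5488, 7717 and 7298 CPM at day 6, and 10 of the 11 read lower at day 1 than in controls, with a median of -0.48. Krt14, the keratin of basal cells, read 5178, 4577 and 3073 CPM in controls, 2445, 2293 and 2220 CPM at day 1 and 2153, 3338 and 2758 CPM at day 6.

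Per 100 CPM of basal keratinocyte markers, the 40 genes had 15.3, 13.4 and 13.1 CPM in controls, 10.9, 13.3 and 13.6 CPM at day 1 and 23.8, 22.6 and 18.9 CPM at day 6. For the 40 genes set against basal keratinocyte content, day 1 therefore overlapped the controls, and day 6 lay above both without overlap. By the same measure the 7 replication genes overlapped. They had 2.44 to 3.13 CPM in controls, 2.77 to 3.03 CPM at day 1 and 2.96 to 3.60 CPM at day 6. With the basal keratinocyte level as a covariate, the median of the 40 was -0.23 for day 1 against control and 0.76 for day 6 against control. Stress keratinocyte markers went from a range of 2060 to 7366 CPM in controls to 1348 to 2272 CPM at day 1. Hair follicle matrix markers summed to 18.3 to 217 CPM in controls, 30.8 to 116 CPM at day 1 and 42.3 to 83.7 CPM at day 6. The basal keratinocyte sums at day 1 lay below those of all controls, so this covariate and group cannot be fully told apart there. The part of basal keratinocyte content in the day 1 difference was not tested. No covariate was fitted for stress keratinocyte or hair follicle markers.

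**Figure D2:**
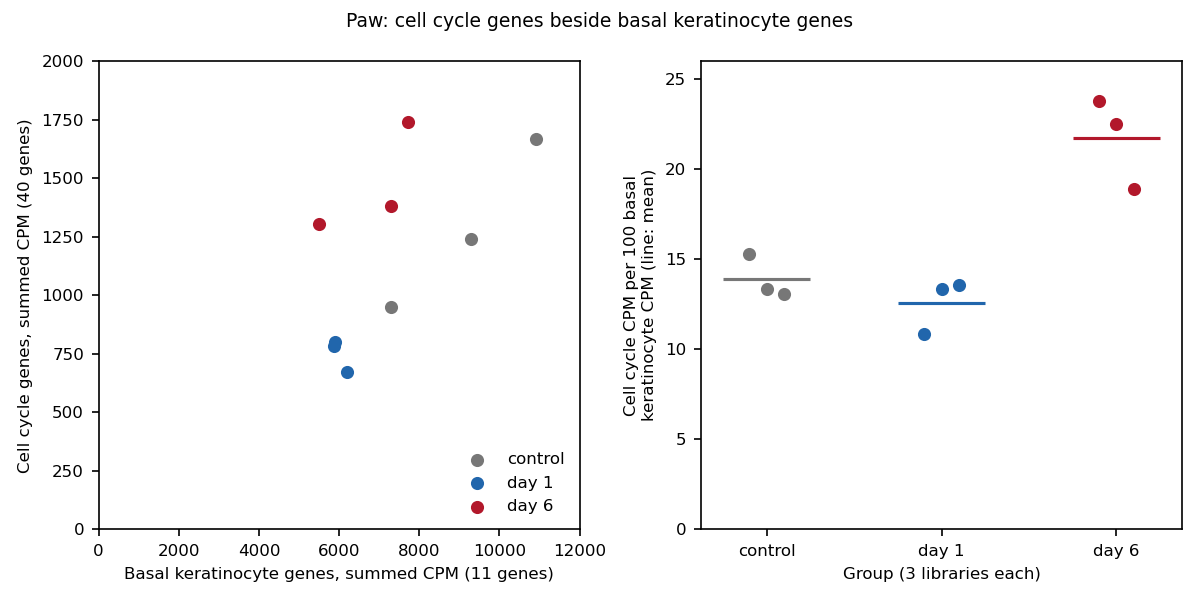
Left, summed CPM of the 40 cell cycle genes (vertical axis) against the summed CPM of 11 basal keratinocyte genes (horizontal axis) in the 9 paw libraries. Right, the ratio of the 2 sums per library by group, with a line at the mean. The day 6 libraries sit at 18.9 to 23.8 CPM per 100, above the 10.9 to 15.3 of the other 6.

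Between day 1 and day 6, 12 of the 40 genes rose in paw and 0 fell, and none of the 12 is a replication gene. This stands against 0.949% of all genes called higher. The median over the 40 was 1.03, against -0.00907 over all genes, and the 40 differences ran from 0.24 to 2.14. In 38 of 40 the day 6 values lay above all day 1 values, against 12.7% of all genes, with Mcm2 and Pcna the exceptions. This comparison shares its day 1 libraries with the one above, so the signs in the pair of them are not independent.

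Among the cyclins, Ccna2, the cyclin A of S phase and mitotic entry, read 49.8, 42.1 and 35.8 CPM in controls, 23.8, 27.3 and 28.2 CPM at day 1 and 52.5, 65.4 and 57.6 CPM at day 6. All 3 day 6 libraries lay above all 6 others. The rise from day 1 was 1.15 ± 0.14 (adjusted p = 0.0202). Ccnb2, a cyclin B, read 16.2, 14 and 12.5 CPM in controls, 8.99, 10.3 and 11.7 CPM at day 1 and 21.2, 24.5 and 23.3 CPM at day 6. Here the 3 groups were fully separated. Its rise was also 1.15 ± 0.14 (adjusted p = 0.0202), and against control it stood at 0.69 ± 0.14 (adjusted p = 0.0743). Ccnb1 and Cdk1 had differences of 1.03 ± 0.28 and 0.93 ± 0.19 from day 1 to day 6 that did not pass (adjusted p = 0.158 and 0.0625).

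Of the 7 mitotic kinases and checkpoint proteins, Aurkb passed. Aurkb, the kinase of the chromosomal passenger complex, read 19.6, 13.7 and 11.5 CPM in controls, 8.62, 8.72 and 8.19 CPM at day 1 and 16, 19.7 and 17.4 CPM at day 6. The day 1 values were tightly grouped and low, and day 6 overlapped the controls. The rise was 1.06 ± 0.19 (adjusted p = 0.0449). Bub1b, a spindle checkpoint protein that holds back anaphase, differed by 1.10 ± 0.21 (adjusted p = 0.0555), and Plk1, a kinase acting throughout mitosis, by 1.56 ± 0.32 (adjusted p = 0.063).

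All 3 genes that act with the anaphase promoting complex or at mitotic entry rose. Cdc20, which activates the complex to release anaphase, read 26.9, 23.9 and 14.2 CPM in controls, 7.86, 11.4 and 11.1 CPM at day 1 and 22.7, 30 and 25.5 CPM at day 6. Ube2c, its ubiquitin-conjugating enzyme, read 15.3, 11.8 and 9.98 CPM, then 7.39, 8.89 and 8.91 CPM, then 14.5, 19.9 and 16.8 CPM. For both, day 1 lay under all 6 other libraries while day 6 overlapped the controls. Their rises were 1.37 ± 0.25 (adjusted p = 0.0452) and 1.03 ± 0.19 (adjusted p = 0.0463). Cdca3, a trigger of mitotic entry, read 30.4, 25.4 and 28 CPM, then 21.7, 24.2 and 23 CPM, then 31.1, 43.1 and 40.4 CPM. Its groups were fully separated though its rise was the smallest of the 12, at 0.74 ± 0.13 (adjusted p = 0.0452).

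At the centromere, Cenpf, a kinetochore protein of late G2 and mitosis, read 61.9, 52.3 and 29.3 CPM in controls, 13.3, 19.8 and 21.8 CPM at day 1 and 56.2, 65.4 and 50.5 CPM at day 6. Day 1 was lowest without overlap. The rise of Cenpf was 1.65 ± 0.28 (adjusted p = 0.0407). The other 6 genes of the chromatin and centromere group had differences of 0.86 to 1.49 that did not pass, the lowest that of Cenpa, the histone variant of the centromere, and the highest that of Cenpe, a kinetochore motor.

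In the spindle and cytokinesis group, Kif20a, Kif23 and Nusap1 passed. Kif20a, a kinesin of the central spindle, read 31.4, 26.5 and 18.8 CPM in controls, 12.2, 15 and 14.8 CPM at day 1 and 32.3, 40.2 and 32.5 CPM at day 6, a rise of 1.32 ± 0.19 (adjusted p = 0.0249). Kif23, the kinesin of the centralspindlin complex that positions the cleavage furrow, read 26.3, 23.5 and 18.4 CPM, then 14.3, 16.3 and 16.6 CPM, then 28.7, 35 and 31.7 CPM. Both had all 3 groups separated, with day 6 highest. The rise of Kif23 was 1.02 ± 0.15 (adjusted p = 0.0249). Nusap1, a microtubule-binding spindle protein, read 35.1, 28.6 and 25.6 CPM, then 17, 22 and 20.2 CPM, then 34.9, 45.2 and 35.7 CPM, a rise of 0.97 ± 0.16 (adjusted p = 0.0334). Its day 6 range overlapped the highest control.

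The largest differences were in a pair of low transcripts. Fam64a (Pimreg), a mitotic protein, read 3.42, 4.98 and 3.46 CPM in controls, 0.927, 1.91 and 1.84 CPM at day 1 and 7.41, 7.33 and 5.75 CPM at day 6. Mxd3, a Max-binding transcription factor expressed in dividing cells, read 5.32, 5.1 and 3.93 CPM, then 2.25, 2.75 and 2.6 CPM, then 8.64, 9.49 and 6.59 CPM. In both, the 3 groups were separated in the order day 1, control, day 6. The rises were 2.14 ± 0.30 (adjusted p = 0.0248) and 1.70 ± 0.20 (adjusted p = 0.0202), and against control the differences of 0.79 ± 0.28 and 0.79 ± 0.20 did not pass (adjusted p = 0.37 and 0.149).

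The 7 replication and nucleotide genes had smaller differences. From day 1 to day 6 all 7 were positive, 0 passed by edgeR, 2 had an unadjusted p under 0.05 (8.57% of all genes were higher by that measure), and their median was 0.35, against medians of 1.03 to 1.92 in the other roles. Pcna, the sliding clamp of DNA polymerase, read 40.6, 31.5 and 30.8 CPM in controls, 31.3, 28.7 and 28 CPM at day 1 and 31.2, 36.9 and 36.8 CPM at day 6, with overlap in every comparison. Mcm2 read 42.8, 27.4 and 25.8 CPM, then 24.5, 22.9 and 18.9 CPM, then 22.4, 31 and 24.7 CPM. Its highest value by a wide margin was that of paw control 1. From day 1 to day 6, Pcna differed by 0.25 ± 0.13 and Mcm2 by 0.24 ± 0.21 (adjusted p = 0.409 and 0.638). Mcm5 differed by 0.55 ± 0.22 and Rrm2, the small subunit of ribonucleotide reductase, by 0.74 ± 0.27 (adjusted p = 0.311 and 0.276).

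Measured against the IgG controls, no gene of the 40 passed at day 6 by edgeR, where 0.667% of all genes were called higher. Limma voom called 1, against 0.916% of all genes higher, and DESeq2 called 2, against 2.71%. The median was 0.26, 10 had an unadjusted p under 0.05 (6.12% of all genes), and 8 lay above every control without overlap (8.22% of all genes): Ccna2, Ccnb2, Cenpa, Kif20a, Kif23, Fam64a, Mxd3 and Cdca3. All 33 mitotic genes had positive differences, while 5 of the 7 replication genes, Mcm2, Mcm3, Mcm5, Mcm6 and Rrm2, had negative ones of -0.37 to -0.16. Without paw control 1 the median was 0.53, and without paw control 3 it was 0.06.

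Several settings moved the number called between day 1 and day 6. It was 34 by limma voom, which called 3.54% of all genes higher, and 33 by DESeq2, which called 3.66% higher, and it fell to between 0 and 6 when any 1 of the 6 libraries was left out. Without day 1 libraries 1 or 3, or day 6 libraries 1 or 2, 0 were called; without day 1 library 2, 1; without day 6 library 3, 6. The median over those fits stayed between 0.897 and 1.11. Macrophage and monocyte markers rose at the same time, 6 of 10 past the threshold and all 10 positive, and their sum went from 247 to 397 CPM at day 1 to 791 to 1239 CPM at day 6. With the macrophage level as a covariate, chosen after seeing the data, 0 of the 40 and 0 of all genes were called and the median was 0.93, with 38 of the 40 positive. The macrophage sums of day 1 and day 6 did not overlap, so this covariate and day cannot be fully told apart. T cell markers were higher as well: 8 of them summed to 4.72 to 6.77 CPM at day 1 and 9.08 to 9.35 CPM at day 6, without overlap. All 5 that could be tested were positive, with a median of 1.30, 4 had an unadjusted p under 0.05 and 0 passed by edgeR. The part of T cells in the rise was not tested.

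Of the 40 genes, 9 share exonic bases with a protein-coding gene on the opposite strand in GENCODE M21, and the strand setting of the counting is not given in the sources used here. Of the genes called, these are Ccna2 (with Exosc9), Cdc20 (Elovl1), Kif20a (Cdc23), Mxd3 (Prelid1), Nusap1 (Oip5) and Ube2c (Tnnc2). None of the 9 partner genes passed between day 1 and day 6. The partner differences were between -0.04 and 0.31 apart from Oip5 at 0.97 ± 0.25 and Tnnc2, a troponin of fast muscle, at -1.23 ± 1.28. Ube2c was 15.3 CPM in paw control 1, the library almost without muscle RNA.

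Other lists of cell cycle genes were measured in paw as well, and differences between the lists were not tested. From day 1 to day 6, 0.949% of all genes were called higher and 8.57% were higher at an unadjusted p under 0.05. Of 43 other mitosis genes, 12 rose between day 1 and day 6, 41 were positive, and the median was 0.87. Aspm, a spindle pole protein, read 11.3, 16.1 and 16.6 CPM at day 1 and 39.3, 47.8 and 37.3 CPM at day 6, a rise of 1.50 ± 0.25 (adjusted p = 0.0351). Cdc25b, a phosphatase that activates Cdk1, rose by 0.77 ± 0.12 (adjusted p = 0.0325) and Tacc3, a spindle protein, by 0.79 ± 0.13 (adjusted p = 0.0376). Of 25 other replication genes, 0 were called, 8 were higher at an unadjusted p under 0.05, 25 were positive and the median was 0.36, with Tk1, Cdc45 and Rrm1 at 0.66, 0.54 and 0.45. Of 21 genes of the G1 cyclins, E2F factors and pocket proteins, 0 were called, 3 were higher at an unadjusted p under 0.05, 16 were positive and the median was 0.14, with E2f2, Rbl1 and E2f1 at 0.55, 0.54 and 0.54. Of 14 cell cycle inhibitors and p53 targets tested, 0 were called, 1 was higher and 1 lower at an unadjusted p under 0.05, and the median was 0.08, with Ccng2 at 0.30, Mdm2 at -0.26 and Sesn1 at 0.23.

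At day 1 against control these lists were lower in the same order. Their medians were -0.71 for other mitosis genes (41 of 43 negative), -0.44 for other replication genes (25 of 25), -0.17 for the G1 list (18 of 21) and -0.08 for the inhibitors (9 of 14). None of their genes passed by edgeR, and 35, 11, 5 and 2 in that order were lower at an unadjusted p under 0.05, against 6.63% of all genes. Ndc80, Ncaph and Aspm, which act at the kinetochore, in chromosome condensation and at the spindle pole, led the first list at -1.23, -0.94 and -1.11.

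Nerve tissue carried far less of these transcripts, and 1 gene passed. In DRG, Cenpf read 0.892, 0.692 and 1.26 CPM in controls, 0.619, 0.578 and 0.612 CPM at day 1 and 2.64, 1.93 and 2.74 CPM at day 6. Day 6 lay above all 6 other libraries and day 1 below all of them. The rise from day 1 to day 6 was 2.01 ± 0.26 (adjusted p = 0.015), against 0.0129% of all genes called higher. It passed in 1 of the 6 fits that left out a library, the one without day 1 library 3, with adjusted p up to 0.111 in the others. DESeq2 called 2 of the 40, against 0.0907% of all genes higher, and limma voom 1, against 0.0194%.

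Across the 40, DRG differences from day 1 to day 6 were positive in 33, with a median of 0.46 against -0.00387 over all genes. Day 6 lay above day 1 without overlap in 16, against 6.01% of all genes, and 16 had an unadjusted p under 0.05, against 2.80%. Ckap2, a spindle protein, read 1.47, 1.55 and 1.63 CPM at day 1 and 3.04, 2.72 and 3.42 CPM at day 6, at 0.98 ± 0.16 (adjusted p = 0.0669). The replication genes went the other way, 6 of 7 negative with a median of -0.15. Mcm2 read 11.5, 10.5 and 10.2 CPM at day 1 and 8.67, 8.66 and 8.77 CPM at day 6, lower in all 3 without overlap, at -0.30 ± 0.10 (adjusted p = 0.533). Pcna, at 14.4, 14.6 and 16.3 CPM against 16.3, 15.4 and 13.1 CPM, overlapped. Mki67 and Top2a overlapped too, at 0.29 ± 0.36 and 0.55 ± 0.25.

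Against DRG controls nothing passed among the 40 by edgeR, limma voom or DESeq2, where edgeR called 0.168% of all genes at day 1 and 0% at day 6. At day 1, 29 were negative with a median of -0.15. At an unadjusted p under 0.05, 0 were higher and 3 lower, against 4.66% and 2.74% of all genes. That median was 0.02 without DRG control 3. At day 6, 30 were positive with a median of 0.17, and 9 were higher at an unadjusted p under 0.05, against 1.88% of all genes. From the other lists, Ccnd1, the cyclin D that starts the G1 phase, was the gene called in DRG at day 1. It read 73.9, 77.8 and 70.9 CPM in controls, 114, 115 and 93.8 CPM at day 1 and 80.4, 83.1 and 70.1 CPM at day 6. Day 1 was higher without overlap, by 0.54 ± 0.09 (adjusted p = 0.0484), and this held in 1 of 6 fits that left out a library. From day 1 to day 6 Ccnd1 differed by -0.47 ± 0.09, which did not pass (adjusted p = 0.115).

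In the spinal cord 31 genes could be tested, and 30 were positive from day 1 to day 6, with a median of 0.56 against 0.00907 over all genes. None passed by edgeR or limma voom, where 0% of all genes were called, and DESeq2 called 1, against 0.318% of all genes higher. At an unadjusted p under 0.05, 10 were higher, against 5.39% of all genes, and 9 did not overlap, against 8.17%. Mki67 read 0.65, 0.327 and 0.873 CPM at day 1 and 9.79, 1.85 and 3.47 CPM at day 6. Top2a read 0.115, 0.286 and 0.956 CPM and then 4.64, 0.617 and 1.39 CPM. In both, day 6 library 1 was far above the rest, and only Mki67 had no overlap. Their differences were 3.02 ± 0.72 and 2.30 ± 0.97 (adjusted p = 0.463 and 0.519).

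Ube2c had enough counts in the cord but did not pass the filter, at 0.229, 0.163 and 0.166 CPM against 1.37, 0.411 and 0.884 CPM. Ccnb1, Bub1, Aurkb, Kif2c, Ttk, Pbk, Fam64a and Mxd3 were too low there. Pcna, at 20.7, 19.7 and 21.7 CPM against 21.7, 21.3 and 20.8 CPM, differed by 0.04 ± 0.07. Kif20a read 0.497, 0.735 and 0.416 CPM against 1.46, 0.987 and 1.01 CPM, without overlap, at 1.07 ± 0.33 (adjusted p = 0.463). Without day 6 library 1 the cord median was 0.26. Without day 6 library 2, 7 of the 33 genes then tested were called, all higher, among 818 called over all genes.

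Of the other mitosis genes, 0 were called in DRG or cord. In DRG 33 of 40 tested were positive from day 1 to day 6 with a median of 0.24, and 10 were higher at an unadjusted p under 0.05 by edgeR. Troap and Aspm, both spindle proteins, led them at 1.42 ± 0.29 and 1.34 ± 0.30 (adjusted p = 0.144 and 0.229), followed by Anln, a scaffold of the cleavage furrow, at 0.32 ± 0.10. In cord 26 of 31 tested were positive with a median of 0.27, and 6 were higher at an unadjusted p under 0.05, led by Hmgb2, Aspm and Cdca2 at 1.03 ± 0.30, 1.29 ± 0.41 and 1.33 ± 0.48. E2f8, an E2F factor that represses its targets late in S phase, read 0.153, 0.286 and 0.291 CPM in cord at day 1 and 2.46, 0.864 and 1.14 CPM at day 6. Its values did not overlap, at 2.60 ± 0.51 (adjusted p = 0.463).

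**Figure D3:**
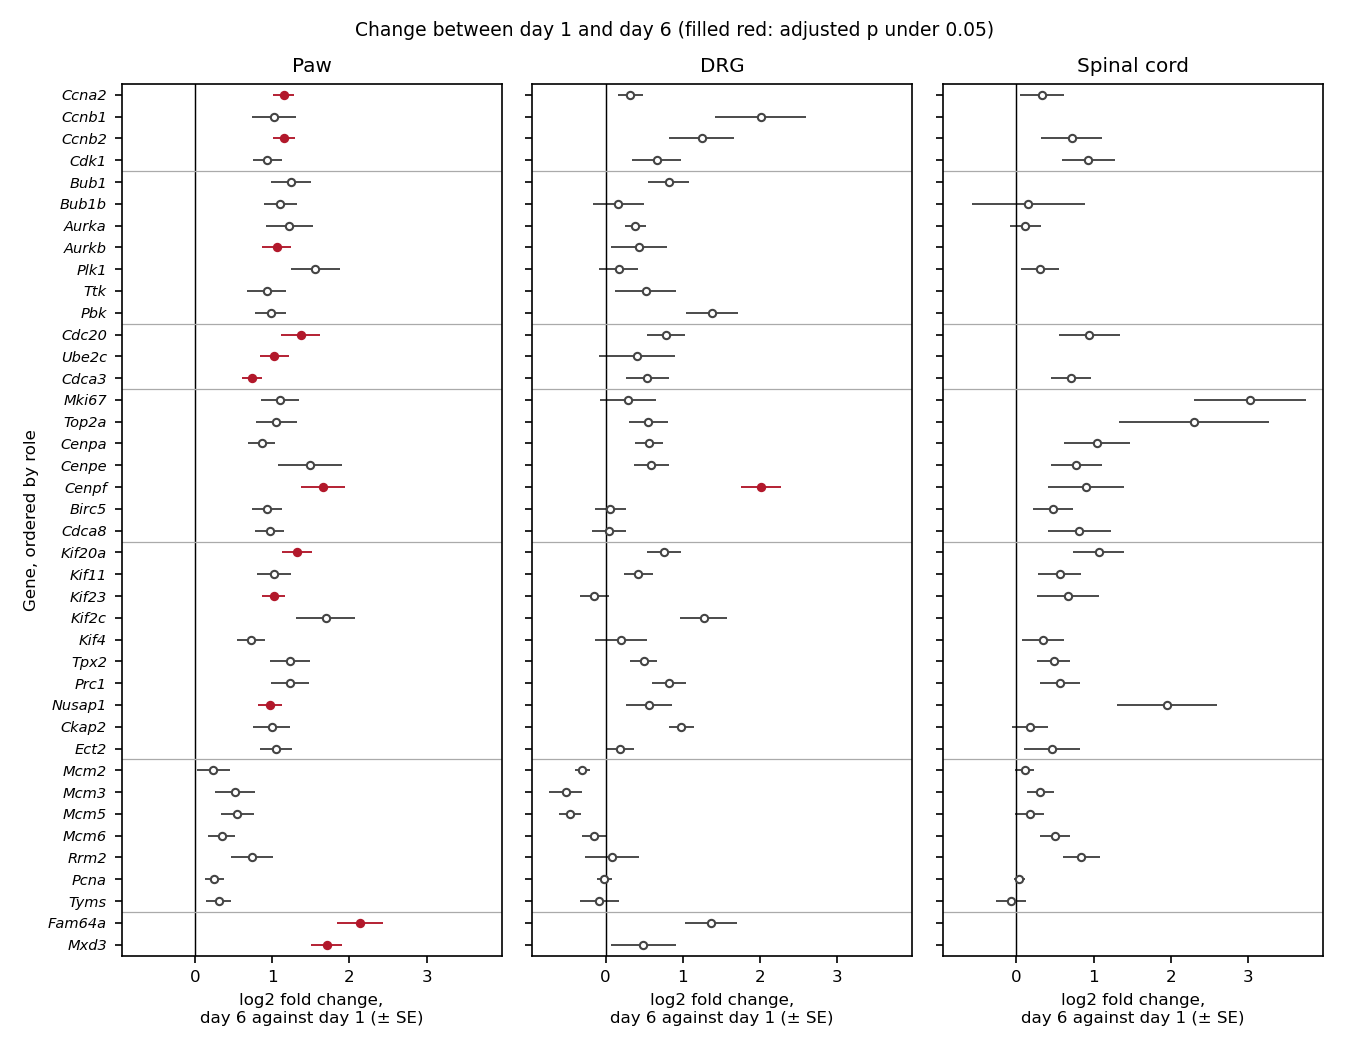
Log2 fold change from day 1 to day 6 (horizontal axis) with its SE for each gene (rows, by role) in paw, DRG and spinal cord; filled red points passed an adjusted p of 0.05. In paw the points of all 40 lie right of 0 and 12 passed; in DRG 33 lie right of 0 and Cenpf passed; in cord 30 of 31 lie right of 0 and 0 passed.

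Granulocyte precursor markers were higher at day 6 than at day 1 in both nerve tissues, as were most of the mitotic genes, and none of these markers passed by edgeR. In cord, 8 genes of granulocyte precursors summed to 7.34, 9.77 and 19.5 CPM at day 1 and 283, 37.8 and 66.3 CPM at day 6. Ngp, Ltf and Camp made up most of this sum, at 134, 93.3 and 40.3 CPM in day 6 library 1. Elane and Mpo read 2.18 and 9.33 CPM in that library. The 5 that could be tested, Mpo, Prtn3, Camp, Ngp and Ltf, were all positive without overlap. Alas2, the first enzyme of heme synthesis in red cell precursors, read 1.72, 5.72 and 2.99 CPM and then 41.4, 4.85 and 9.22 CPM. Hba-a1, Hba-a2, Hbb-b1 and Hbb-b2 had 0 counts in every library and give no measure of red cells. With the granulocyte precursor level as a covariate, added after seeing the data, the cord median was -0.14, and with the erythroid level it was 0.03.

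In DRG the granulocyte precursor genes summed to 106, 70.5 and 180 CPM in controls, 63.7, 29.1 and 46.2 CPM at day 1 and 216, 103 and 75.5 CPM at day 6, all 8 of them positive from day 1 to day 6. Erythroid markers ran the other way in DRG: the 5 tested were all negative, with a median of -0.71 and 0 called, and their sums were 57 to 85.9 CPM at day 1 and 49.9 to 64.6 CPM at day 6. With the granulocyte precursor level as a covariate, the DRG median from day 1 to day 6 was 0.07 and 0 of the 40 were called. With the erythroid level, 1 was called. In paw the granulocyte precursor genes summed to 0.275 to 1.35 CPM, near 0 in every library. In DRG and in cord the granulocyte precursor sums of day 1 and day 6 did not overlap, so this covariate and day cannot be fully told apart. The share of these cells in the DRG and cord differences was not tested.

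**Figure D4:**
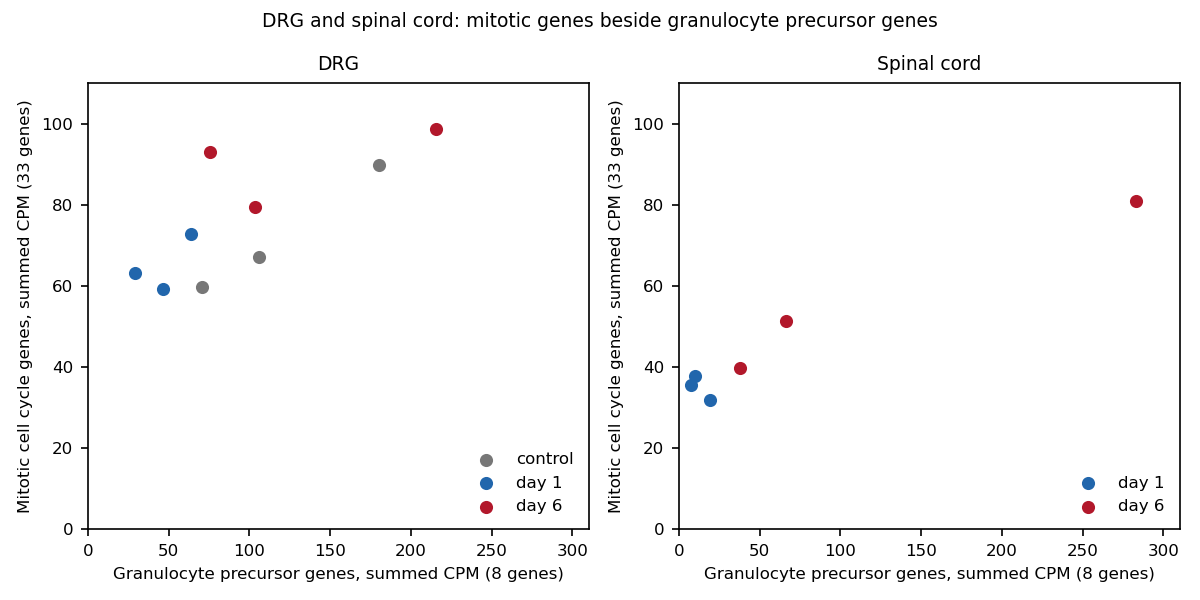
Summed CPM of the 33 mitotic genes (vertical axis) against the summed CPM of 8 granulocyte precursor genes (horizontal axis), 1 point per library, in DRG (9 libraries) and spinal cord (6). In cord the mitotic sum leaves out Fam64a and Mxd3. The cord library with 283 CPM of precursor genes also has the most mitotic transcript, and the DRG day 1 libraries are lowest in precursor genes.

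Paw and DRG could be compared directly over 18 libraries. From day 1 to day 6 the paw difference exceeded the DRG difference in 36 of 40 genes, with a median gap of 0.57, and 1 gene passed, Kif23, against 0.729% of all genes called higher. Kif23 read 5.15, 5.35 and 5 CPM in DRG at day 1 and 4.16, 3.93 and 5.94 CPM at day 6, so its DRG change was -0.14 ± 0.18 while paw rose. The gap was 1.16 (adjusted p = 0.0414). Limma voom called 7, against 2.64% of all genes higher, and DESeq2 called 3, against 2.01%. For day 1 against control the paw difference was the lower in 36 of 40, with a median of -0.60; edgeR called 0 of the 40 and 0% of all genes, limma voom called 0, DESeq2 called 1 (0.202% of all genes lower), and 14 were lower at an unadjusted p under 0.05, against 5.87% of all genes. For day 6 against control 19 were positive and 21 negative with a median of -0.09, and 0 were called by any of the 3 tools, against 0.498% of all genes by edgeR; 0 were higher and 3 lower at an unadjusted p under 0.05, against 4.93% and 2.81% of all genes.

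The balance of mitotic to replication transcripts was highest at day 6 in each tissue. The summed CPM of the 33 mitotic genes divided by that of the 7 replication genes was 3.88, 4.49 and 3.60 in paw controls, 2.88, 3.40 and 3.90 at day 1 and 5.61, 5.48 and 5.39 at day 6. In DRG it was 1.30, 1.12 and 1.39, then 1.10, 1.06 and 1.05, then 1.73, 1.56 and 1.87. In cord it was 0.728, 0.750 and 0.612 at day 1 and 1.27, 0.759 and 0.886 at day 6. The cord sum of mitotic genes leaves out Fam64a and Mxd3, which were too low there. Day 6 lay above every other library of its tissue in all 3, by a narrow margin in cord, where 0.759 stood against 0.750. This ratio was formed after the values were seen and carries no test, and Mki67 weighs heavily in the paw sum.

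**Figure D5:**
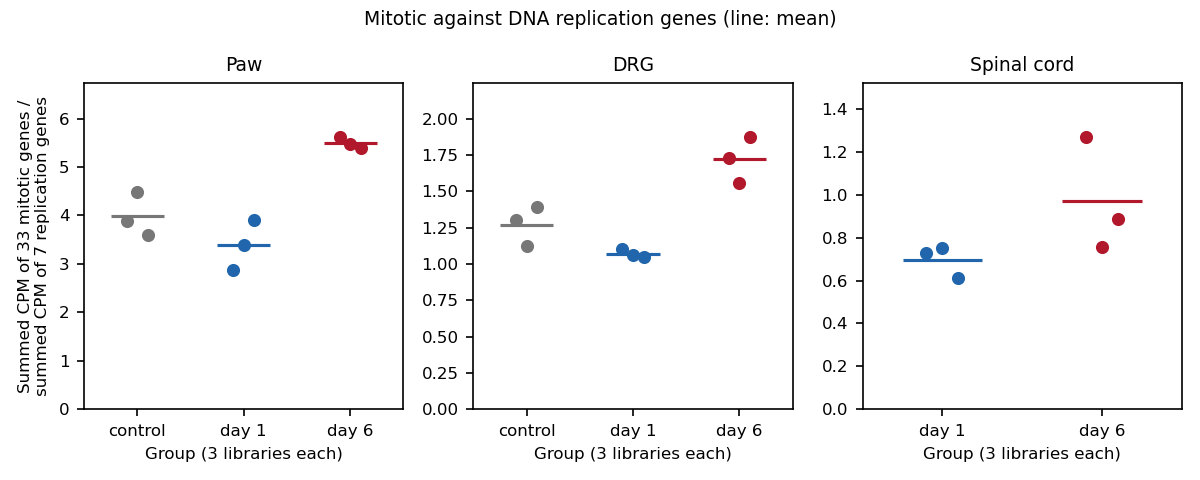
Summed CPM of 33 mitotic genes divided by summed CPM of 7 replication genes for each library (points) by group, with a line at the mean, in paw, DRG and spinal cord. In cord the mitotic sum leaves out Fam64a and Mxd3. Day 6 is highest in each tissue, at 5.39 to 5.61 in paw, 1.56 to 1.87 in DRG and 0.759 to 1.27 in cord.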

How the data were processed

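Each library came as a file of unnormalized counts by gene symbol that the authors deposited. Per the submitters' processing notes these were made with bcl2fastq, TopHat2, HTSeq and the mm9 build; versions, annotation and strand setting are not given in the sources used here. Per the labels' protocols, stranded mRNA libraries from 500 ng of RNA were read as 50 bp single ends. The 5 summary lines of each file were removed. Of 24 pairs of replicates, 0 were identical. Each tissue was fitted with all its groups in edgeR 4.0.16 under R 4.3.3, with limma 3.58.1, by its quasi-likelihood test (TMM, default low-count filter, robust dispersions), 2-sided, with Benjamini-Hochberg adjusted p over all genes and a threshold of 0.05. "Called", "passed", "rose" and "fell" refer to it. Paw and DRG were compared by an interaction over 18 libraries, treated as independent. SE is the log2 fold change divided by the square root of F. Marker levels used as covariates were mean centred log2 CPM with a prior count of 2. DESeq2 1.42.0, limma voom, other scalings and filters, covariates and left-out libraries were alternatives. On simulated data for day 6 against day 1, the fit recovered 56 of 100 2-fold changes in paw, 92 in DRG and 85 in cord. False calls there were 6 of 153 in paw, 11 of 203 in DRG and 17 of 198 in cord. Recovery was not tested separately for genes of low CPM, such as many of the mitotic genes in DRG and cord. The genes and lists were chosen with earlier results of these data known. Named genes were those called, the 2 with the smallest p in each role from day 1 to day 6 in paw, Mki67, Top2a, Pcna and Mcm2, and the 3 with the smallest p in each other list; others named were chosen after their values were seen. Promoter sequences are RefSeq's.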

Additional observations from a re-analysis of the deposited data

Results flagged for a closer look

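In the comparison of day 6 with day 1, 2 cell cycle genes differed between paw and DRG by the interaction test of edgeR. Kif23 stood 1.16 higher on the log2 scale in paw than in DRG (adjusted p = 0.0414), with a paw change of 1.02 and a DRG change of -0.14, and it passed in 2 of 12 fits that left out a library. Cdc25b stood 0.81 higher (adjusted p = 0.028), with day 1 and day 6 values of 22.3, 25.6, 27.1 and 39.1, 48.3, 40.2 CPM in paw and of 14, 11.2, 12.3 and 12.4, 12, 12 CPM in DRG, and it passed in 5 of those 12 fits.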

How the results depend on the processing

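From day 1 to day 6 in paw, the number of the 40 genes called (12) was 34 by limma voom, 33 by DESeq2, 25 with the fit limited to the groups compared, 28 with a basal keratinocyte covariate, 31 with skeletal muscle, 7 with erythroid genes, 0 with macrophage genes and 6 with a replicate block. Sample numbers gave no clear pairing between groups within a tissue. Deviations correlated above 0.1 in 1 of 9 same-number pairs in paw, 2 of 9 in DRG and 0 of 3 in cord. Whether paw and DRG samples with the same number came from the same mouse was not checked. The replicate block also took the paw and DRG gap from 1 to 0 called. Day 6 against control in paw went from 0 to 1 by limma voom, 2 by DESeq2 and 1 with muscle, and day 1 against control from 0 to 15 by DESeq2. By DESeq2, DRG gave 2 and cord 1 from day 1 to day 6, and the gap 1 (day 1 against control) and 3 (day 6 against day 1, with 7 by limma voom). The granulocyte precursor covariate left 0 called in DRG. The basal keratinocyte covariate took the paw medians to -0.23 (day 1 against control) and 0.76 (day 6 against control), and muscle took the former to -0.55. The erythroid covariate gave 0.44 for DRG day 6 against control and 0.025 for cord. The granulocyte precursor covariate gave 0.21 for DRG day 1 against control, 0.074 for DRG day 6 against day 1 and -0.14 for cord. Mcm2 changed sign in paw with the macrophage covariate, to -0.15 from day 1 to day 6. The cause was not tested in any of these.

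Leaving out 1 library gave 0 to 6 called in paw and 0 to 1 in DRG from day 1 to day 6, 0 to 7 in cord and 0 to 1 for the gap, and 0 elsewhere. The medians then ran from -0.98 to -0.53 (paw day 1 against control), 0.06 to 0.53 (paw day 6 against control), 0.90 to 1.11 (paw day 6 against day 1), -0.32 to 0.02, 0.08 to 0.29 and 0.34 to 0.59 for the same in DRG, 0.26 to 0.73 in cord, and -0.86 to -0.37, -0.22 to 0.26 and 0.45 to 0.67 for the gap. RLE and upper-quartile scaling and both filters kept each of the 12 paw calls. In the cord libraries 31 of the 40 could be tested.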
